A study of Caenorhabditis elegans with 12 samples.

Results

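Lysozymes and saposin-like proteins are the enzymes and membrane-active peptides with which Caenorhabditis elegans handles the bacteria it eats and the bacteria that infect it. Members were taken by symbol, as every gene named lys-, ilys- or spp- plus a number that had a probe on the arrays. Of 46 such genes in the reference gene table, 42 had a probe, among 19814 genes matched to a probe in all. They comprised 10 lys genes, 6 ilys genes and 26 spp genes, covered by 59 probes. The rule used symbols and no measured value, but it was chosen with earlier results of these data known.

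The lys genes encode lysozymes of the type first known from protists, and the ilys genes encode invertebrate-type lysozymes. Both kinds of enzyme cut peptidoglycan, the polymer of the bacterial cell wall. The spp genes encode small proteins with the fold of saposins and of the amoebapores of Entamoeba, and some of them (caenopores) open pores in bacterial membranes. Many of these genes are active in the intestine, where bacteria crushed by the pharynx are digested, and several are known targets of insulin-like signalling and of the immune pathways of the worm. In that signalling, DAF-2 is the insulin-like receptor at the cell surface and DAF-16 is the FOXO transcription factor that it holds out of the nucleus.

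Whole adult worms were compared in 4 groups of 3 arrays, all raised at 15 °C with ample food. One group carried daf-2(e1370), a substitution allele that lowers receptor activity, and was held for 12 h at 25 °C. The other 3 groups were the wild-type Bristol strain N2, kept at 15 °C throughout or moved to 25 °C for 3 h or for 12 h. No daf-2 array at 15 °C was analysed here, so the genotypes were set against each other only after the 12 h shift. The allele is a substitution, so the daf-2 transcript (log2 difference 0.14 ± 0.51, SE) does not check the label. Each replicate set (A, B and 1) was 1 slide with 1 array of each group. Nothing in the labels says that the sets came from separate cultures, and their source names call both A and 1 the first replicate. The p-values therefore cover only the spread of these arrays, and part of it may be technical.

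Between 55.4% and 84.8% of probes were well above background, with the 4 arrays of set 1, scanned on another day, at the high end. Values are log2 signals relative to the array's 75th percentile, so that 0 marks that percentile. A difference of 1 between groups is a doubling of signal, and values of different probes are not compared in level. Of the 42 members, 33 passed the filter on dim probes, which asked for 1 group or more with a clear signal on each of its 3 arrays, and 29 were above background on all 12 arrays. The filter let spp-7, spp-12 and spp-13 through by the daf-2 arrays alone. A gene is said to have risen or fallen where limma gave an adjusted p under 0.05, after Benjamini-Hochberg adjustment over all 13481 genes tested. Because the sets share slides, the same fit with the set as a term (the replicate block) is given where it changed a call.

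**Figure D1:**
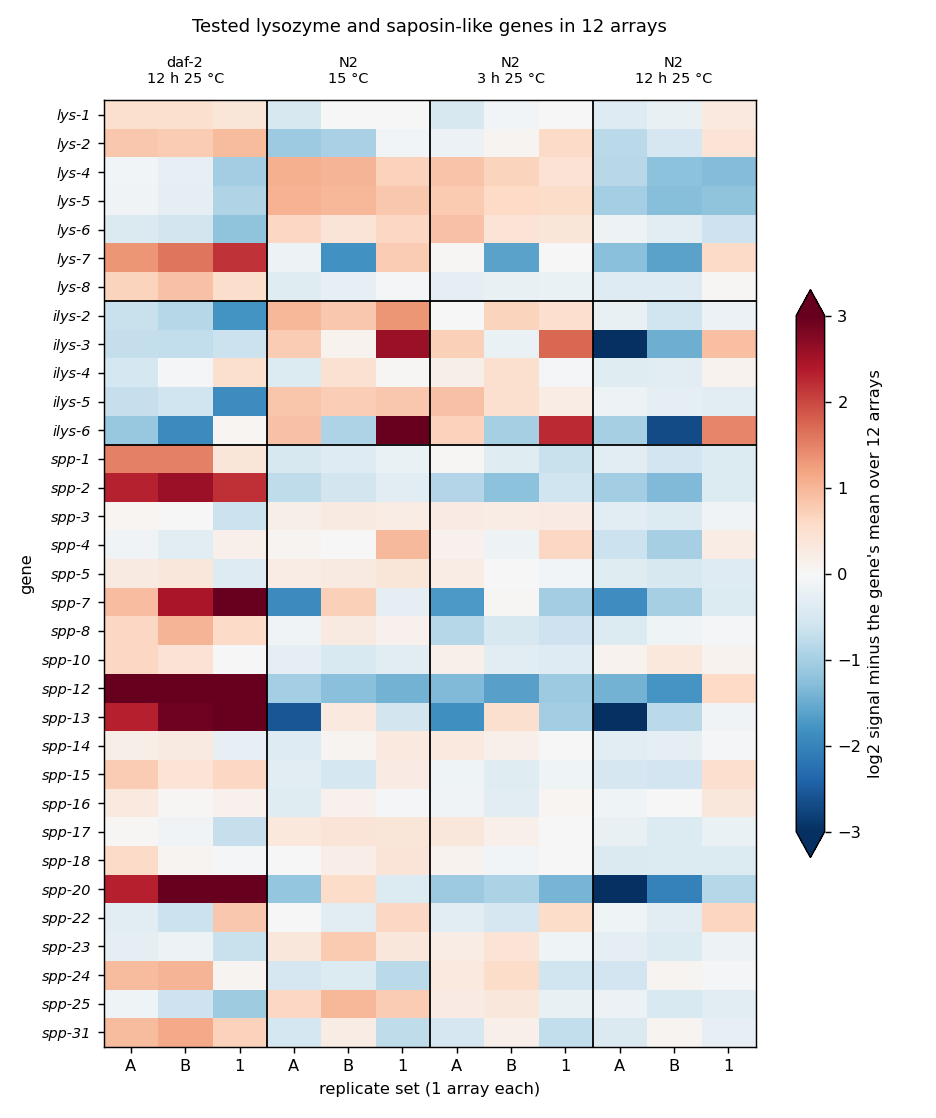
Signal of the 33 tested members (rows) on the 12 arrays (columns, grouped by genotype and temperature), as log2 difference from the gene's mean over all arrays, from blue (lower) to red (higher), with the colour scale ending at 3 either way. The daf-2 columns are red for spp-2, spp-12, spp-13 and spp-20, and the lys-4 and lys-5 rows turn blue in the N2 columns after 12 h at 25 °C.

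The first comparison asked whether 3 h at 25 °C altered these genes. In N2, 0 of 33 tested members passed the threshold, against 1.02% of all genes tested, and 3 had an unadjusted p under 0.05 (spp-8, spp-25 and lys-2). With the replicate block, 1 member fell, against 0.72% of all genes. That member was spp-8, which encodes a saposin-like protein and read 0.47, 0.84 and 0.71 after 3 h, against 1.22, 1.58 and 1.46 at 15 °C (sets A, B and 1). The groups did not overlap, and the array at 3 h was the lower one in every set, with log2 differences of −0.75, −0.75 and −0.74. The log2 difference was −0.74 ± 0.18 (SE, n = 3 arrays each), with adjusted p = 0.111 without the block and 0.0219 with it. In lys-2 the values were 4.55, 4.80 and 5.30 after 3 h, against 3.64, 3.75 and 4.63 at 15 °C. The 3 h array was higher in each set, but the groups overlapped and the adjusted p was 0.438 (log2 difference 0.87 ± 0.35). In 4 of 33 members (lys-5, ilys-2, spp-8 and spp-25) the 3 h arrays all lay below the 15 °C arrays, as in 5.09% of all genes. The median difference of the 33 members was −0.15, against 0.02 over all genes, and 23 of 33 lay below 0, as did 47.1% of all genes. By set, the median of the members was 0.05, −0.14 and −0.35 in sets A, B and 1.

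After 12 h at 25 °C, 4 of 33 members had fallen and 0 had risen relative to N2 at 15 °C, where 0.764% of all genes fell and 1.88% rose. The lysozyme genes lys-4 and lys-5 fell most, to 0.242 and 0.232 of their signal at 15 °C, and ilys-2 and spp-25 fell as well. A single member, spp-10, was higher at an unadjusted p under 0.05. With the replicate block 9 members fell, against 2.48% of all genes, adding lys-6, ilys-5, ilys-6, spp-4 and spp-23. With the block in sets A and B alone, 3 fell (lys-4, lys-5 and spp-4), against 0.854% of all genes. Among the 29 members above background on every array, the same 4 fell, against 0.779% of such genes.

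The pair lys-4 and lys-5 lies next to lys-6 on chromosome IV. In lys-4 the signal was 4.96, 4.92 and 4.59 at 15 °C, 4.74, 4.56 and 4.33 after 3 h, and 3.06, 2.66 and 2.60 after 12 h in sets A, B and 1. The 12 h arrays lay below every earlier N2 array, while the 3 h and 15 °C arrays overlapped. The difference between 12 h and 15 °C was −2.05 ± 0.25 (adjusted p = 0.00346). In lys-5 the signal was 3.71, 3.66 and 3.48 at 15 °C, 3.46, 3.28 and 3.22 after 3 h, and 1.66, 1.39 and 1.47 after 12 h. These 3 groups did not overlap, and the step between 3 h and 12 h exceeded the step before it in each set. The difference between 12 h and 15 °C was −2.11 ± 0.20 (adjusted p = 0.00123). The third gene of the row, lys-6, read −0.04, −0.27 and −0.03 at 15 °C, 0.23, −0.24 and −0.30 after 3 h, and −0.80, −0.99 and −1.27 after 12 h. Its 12 h arrays lay below all others of N2, by −0.90 ± 0.23 against 15 °C, with adjusted p = 0.0772 without the block and 0.0222 with it. No sequences were used here, so whether the probes of these related genes also bind each other's transcripts was not tested. Leaving out all 4 arrays of set A or of set B ended the calls of lys-4 and lys-5 (adjusted p up to 0.199 and 0.128). In those fits 0 of all genes tested passed, so the loss is not particular to these genes. Over all alternatives the log2 differences lay between −2.19 and −1.94 for lys-4 and between −2.20 and −2.03 for lys-5.

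**Figure D2:**
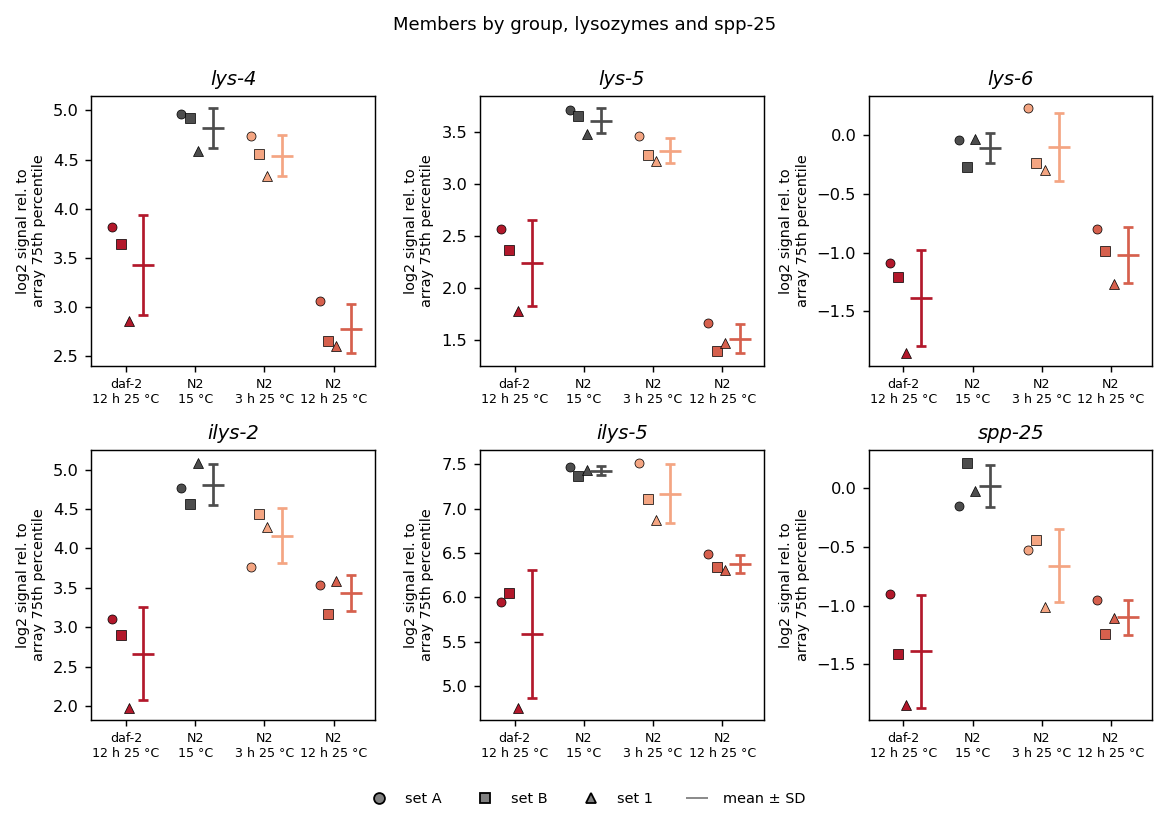
Log2 signal relative to the array's 75th percentile (vertical axes) of lys-4, lys-5, lys-6, ilys-2, ilys-5 and spp-25 in the 4 groups, with 1 point per array (circle set A, square set B, triangle set 1) and a bar for the mean ± SD of 3 arrays. The N2 arrays after 12 h at 25 °C sit below all N2 arrays at 15 °C in all 6 panels.

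Of the 5 tested invertebrate-type lysozyme genes, ilys-2 alone fell after 12 h in the fit without the block. The differences of all 5 lay below 0, as did 46.7% of all genes, with a median of −1.38. In ilys-2 the signal was 4.77, 4.57 and 5.09 at 15 °C, 3.77, 4.44 and 4.27 after 3 h, and 3.54, 3.17 and 3.59 after 12 h. The 3 groups stood in steps without overlap, and 12 h differed from 15 °C by −1.38 ± 0.30 (adjusted p = 0.0419). That call was lost under 14 of 20 alternatives, including each fit without any 1 of the 6 arrays compared (adjusted p up to 0.41). In ilys-5 the signal was 7.47, 7.37 and 7.44 at 15 °C and 6.49, 6.34 and 6.31 after 12 h, with no overlap. Its difference of −1.05 ± 0.31 had adjusted p = 0.115 without the block and 0.0488 with it. In ilys-6 the sets stood far apart, with −1.47, −3.27 and 0.95 at 15 °C, −1.65, −3.35 and −0.11 after 3 h, and −3.35, −5.04 and −0.88 after 12 h. Its groups overlapped, but within each set the 12 h array was lower than the 15 °C array, with log2 differences of −1.88, −1.77 and −1.83. The difference of −1.83 had a standard error of 1.28 (adjusted p = 0.59), or 0.39 with the block (adjusted p = 0.0303).

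The gene ilys-3, whose product is known to act in the pharynx and gut against ingested bacteria, lies beside ilys-2 on chromosome IV. Its signal was 0.77, 0.10 and 2.59 at 15 °C, 0.71, −0.20 and 1.71 after 3 h, and −3.05, −1.46 and 0.89 after 12 h. The 12 h array was the lowest of the 3 in every set, but the groups overlapped. The difference of −2.37 ± 0.93 did not pass (adjusted p = 0.24, or 0.0715 with the block). In ilys-4 the 12 h difference was −0.22 ± 0.30.

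Among the saposin-like genes 1 of 21 fell after 12 h. The signal of spp-25 was −0.15, 0.22 and −0.02 at 15 °C, −0.53, −0.44 and −1.01 after 3 h, and −0.95, −1.24 and −1.11 after 12 h. Both groups at 25 °C lay below all arrays at 15 °C, and 12 h differed by −1.12 ± 0.25 (adjusted p = 0.0439). The 5 probes of spp-25 gave 12 h differences between −1.39 and −0.60. Its call was lost under 16 of 20 alternatives, among them quantile normalization and each fit without 1 of the 6 arrays (adjusted p up to 0.367). With the block, spp-4 (−0.82 ± 0.16, adjusted p = 0.0223) and spp-23 (−0.77 ± 0.17, adjusted p = 0.0352) fell too, and the 5 probes of spp-23 lay between −0.88 and −0.62.

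The caenopore gene spp-5, whose product forms pores and kills ingested bacteria, read 5.56, 5.60 and 5.70 at 15 °C, 5.56, 5.36 and 5.25 after 3 h, and 4.97, 4.85 and 4.96 after 12 h. The 12 h arrays lay below all earlier ones, by −0.69 ± 0.19 against 15 °C (adjusted p = 0.0973). In 11 of 33 members the 3 arrays after 12 h all lay below the 3 at 15 °C, as in 7.91% of all genes. Beside the members already described, these were spp-3 (−0.49 ± 0.19), spp-17 (−0.64 ± 0.19) and spp-18 (−0.62 ± 0.18). The reverse held for spp-10, the worm's counterpart of vertebrate prosaposin, at 0.54 ± 0.20 (adjusted p = 0.201), and for 12.8% of all genes. Its 4 probes ranged between −0.37 and 0.54. Over the 33 members the median 12 h difference was −0.39, against 0.03 for all genes, and 25 lay below 0, as did 46.7% of all genes. Set A gave a median of −0.43, set B of −0.72 and set 1 of −0.23.

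Set directly against 3 h at 25 °C, the 12 h arrays had 2 of 33 members lower and 0 higher, against 0.564% and 1.55% of all genes. These were lys-4 (−1.77 ± 0.25, adjusted p = 0.0134) and lys-5 (−1.81 ± 0.20, adjusted p = 0.00671). In each set the 12 h array of lys-4 was lower than its 3 h partner, with log2 differences of −1.68, −1.90 and −1.72. The call of lys-4 was lost without any 1 of 4 of the 6 arrays (both set B arrays, the 3 h array of set A and the 12 h array of set 1). Both calls were lost with median centring and without set A or set B (adjusted p up to 0.41 for lys-4 and 0.30 for lys-5). Without set A or set B, 0 of all genes tested passed. With the block lys-6 also fell (−0.91 ± 0.17, adjusted p = 0.0241), making 3 members, against 1.42% of all genes. The 1 member higher at an unadjusted p under 0.05 was spp-8, at 0.46 ± 0.18 (adjusted p = 0.318). In spp-8 the 3 arrays after 12 h lay above the 3 after 3 h, as in 10.2% of all genes. Its 3 h arrays were thus lower than both the 15 °C and the 12 h arrays in each set. In 11 of 33 members the 3 arrays after 12 h lay below the 3 after 3 h, as in 7.2% of all genes. The median difference of the 33 members was −0.44, against −0.02 for all genes, and 25 lay below 0, as did 52.7% of all genes. By set, their median was −0.54 in set A and −0.56 in set B, but 0.1 in set 1, so the members as a whole were not lower there. This comparison shares arrays with both comparisons above.

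The remaining comparison set daf-2 against N2, both after 12 h at 25 °C. In daf-2, 13 of 33 members were higher and 0 were lower, against 14.5% and 7.42% of all genes, and 2 (ilys-2 and ilys-5) were lower at an unadjusted p under 0.05. Those higher were 4 of the 7 tested lys genes, 0 of the 5 ilys genes and 9 of the 21 spp genes. Since spp-7, spp-12 and spp-13 entered through the daf-2 arrays and spp-20 was dim in N2, the 29 members above background on every array were also counted alone. Of these, 9 were higher and 0 were lower, against 11.9% and 7.89% of such genes, namely 4 of 7 lys genes, 0 of 5 ilys genes and 5 of 17 spp genes. In a fit without the filter, 9 of all 42 members were higher, against 8.18% of all genes. With the block 17 members were higher and 1 was lower, against 20% and 17.3% of all genes. Deviations from group means of daf-2 and N2 correlated at 0.389, −0.399 and 0.129 within sets A, B and 1. The sets thus paired these arrays less closely than those of N2, which limits the calls gained with the block in this comparison. The median difference was 0.55 in the members and −0.14 in all genes, and 26 of 33 members lay above 0, whereas 58.1% of all genes lay below it. The 17 and the 26 both include spp-7, spp-12 and spp-13. Over the 29 members above background on every array the median difference was 0.5, against −0.16 for such genes. By set, the median of the 33 members was 0.88, 0.77 and 0.15 in sets A, B and 1. Groups always had the same place on the slide, so place and group cannot be told apart.

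**Figure D3:**
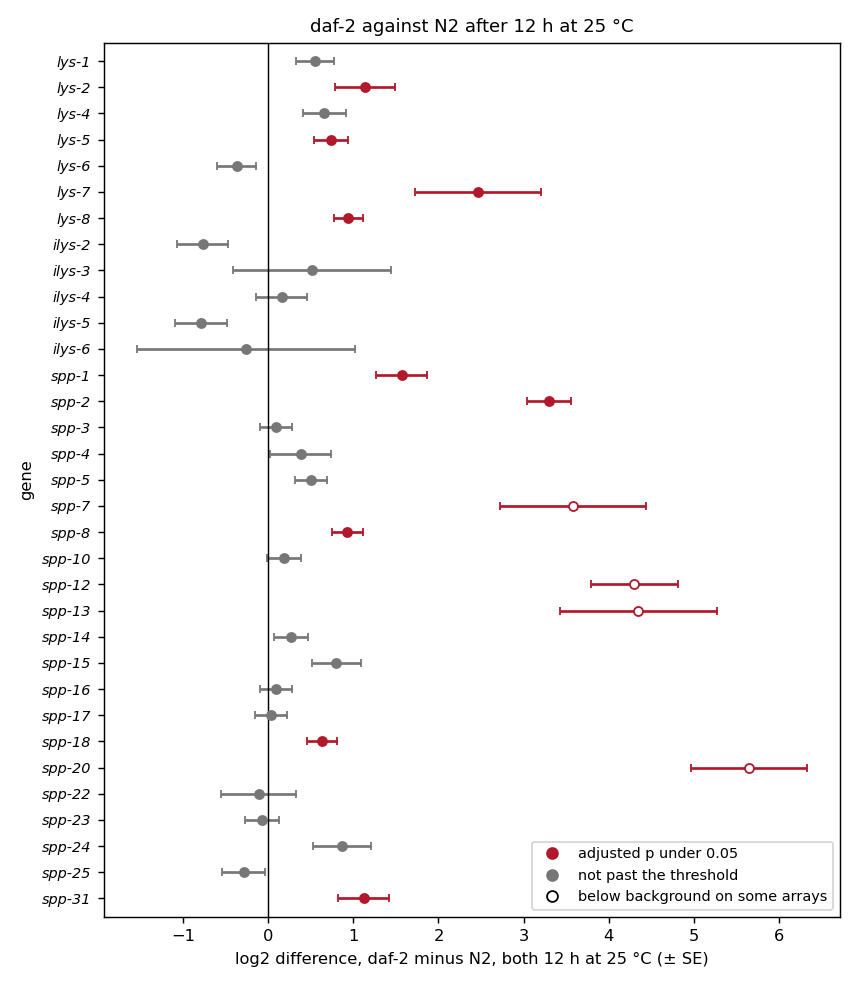
Log2 difference in signal between daf-2 and N2 after 12 h at 25 °C (horizontal axis, ± SE of the limma fit, 3 arrays per group) for the 33 tested members (vertical axis). The 13 genes with an adjusted p under 0.05 are red and all lie above 0, with spp-20 farthest right at 5.65, and open points mark genes not above background on every array.

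Among the lys genes, lys-7, a known target of DAF-16 that protects against several pathogens, read 4.27, 4.54 and 5.10 in daf-2, against 1.67, 1.32 and 3.52 in N2 after 12 h. All daf-2 arrays were higher than all N2 arrays, including those at 15 °C (2.79, 1.11 and 3.69) and after 3 h (2.96, 1.32 and 2.92). The difference was 2.46 ± 0.74, a ratio of 5.51 (adjusted p = 0.0399), and by set it was 2.60, 3.22 and 1.57. In lys-8, another lysozyme gene known as a DAF-16 target, the values were 5.46, 5.66 and 5.32 in daf-2, against 4.39, 4.41 and 4.83 in N2 after 12 h. The groups did not overlap, and the difference of 0.94 ± 0.17 (adjusted p = 0.00305) held in each set. Its N2 arrays at 15 °C (4.43, 4.55 and 4.75) and after 3 h (4.49, 4.57 and 4.59) lay in the range of those after 12 h.

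The neighbours lys-1 and lys-2 on chromosome V are both known as intestinal lysozyme genes. The signal of lys-2 was 5.53, 5.47 and 5.68 in daf-2, against 3.92, 4.22 and 5.14 in N2 after 12 h. The groups did not overlap and differed by 1.14 ± 0.35 (adjusted p = 0.0436). The signal of lys-1 was 5.72, 5.71 and 5.60 in daf-2, against 4.84, 5.01 and 5.53 in N2 after 12 h, 4.74, 5.14 and 5.23 after 3 h, and 4.75, 5.25 and 5.25 at 15 °C. Here too every daf-2 array was above every N2 array, but in set 1 the difference was only 0.07. The overall difference was 0.55 ± 0.22 (adjusted p = 0.0996, or 0.0352 with the block).

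Of lys-4 and lys-5, both lower in N2 after 12 h, lys-5 alone passed between the genotypes in the fit without the block. In lys-5 the signal was 2.57, 2.37 and 1.78 in daf-2, against 1.66, 1.39 and 1.47 in N2 after 12 h. The groups did not overlap, and daf-2 was higher by 0.74 ± 0.20 (adjusted p = 0.0265), by 0.91, 0.99 and 0.31 in the 3 sets. In lys-4 the signal was 3.81, 3.64 and 2.86 in daf-2, against 3.06, 2.66 and 2.60 in N2 after 12 h. In set 1 the daf-2 value lay within the N2 range, and the difference was 0.66 ± 0.25 (adjusted p = 0.0895, or 0.0128 with the block). The 2 changes of lys-5, −2.11 for 12 h against 15 °C and 0.74 for daf-2 against N2, share the 3 N2 arrays after 12 h. In lys-6 the daf-2 difference was −0.37 ± 0.23 (adjusted p = 0.269).

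Of these lysozyme calls, lys-8 was lost only under median centring and without set A or set B, whereas lys-2, lys-5 and lys-7 were each also lost without any 1 of 5 of the 6 arrays compared. These 3 calls were lost with no filter on dim probes too, and those of lys-2 and lys-5 with only the 2 groups in the fit. The array whose removal kept the call was the N2 array of set 1 for lys-2 and lys-7, and the daf-2 array of set 1 for lys-5. The highest adjusted p was 0.298 for lys-2, 0.342 for lys-5, 0.273 for lys-7 and 0.128 for lys-8, and the difference stayed above 0 under all 20 alternatives for each.

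Among the saposin-like genes, spp-2 had the smallest standard error relative to its difference. Its signal was 3.71, 4.0 and 3.6 in daf-2, against 0.35, 0.07 and 0.99 in N2 after 12 h. The N2 arrays after 3 h (0.52, 0.18 and 0.80) and at 15 °C (0.64, 0.86 and 1.08) were as low, far below the daf-2 arrays. The difference between daf-2 and N2 was 3.30 ± 0.26, a ratio of 9.85 (adjusted p = 4.55e-05), and it passed under all 20 alternatives. The gene lies on chromosome X in a run with spp-3, spp-4, spp-5 and spp-6. The daf-2 differences of the first 3 were 0.09 ± 0.19 for spp-3, 0.38 ± 0.36 for spp-4 and 0.50 ± 0.19 for spp-5, and none of these passed.

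The gene spp-1, which encodes an antimicrobial caenopore and is a known DAF-16 target, read 4.92, 4.92 and 3.77 in daf-2, against 3.07, 2.83 and 2.99 in N2 after 12 h. The groups did not overlap, and daf-2 was higher by 1.57 ± 0.30 (adjusted p = 0.00444), by 1.86, 2.09 and 0.78 in the 3 sets. Its N2 arrays read 2.94, 3.02 and 3.22 at 15 °C and 3.44, 3.04 and 2.75 after 3 h. All 6 probes of spp-1 gave a daf-2 difference between 1.22 and 1.68. For spp-5 the signal was 5.61, 5.69 and 4.96 in daf-2, against 4.97, 4.85 and 4.96 in N2 after 12 h. The sets A and B arrays of daf-2 were higher and the set 1 array was at the N2 level (adjusted p = 0.0923).

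**Figure D4:**
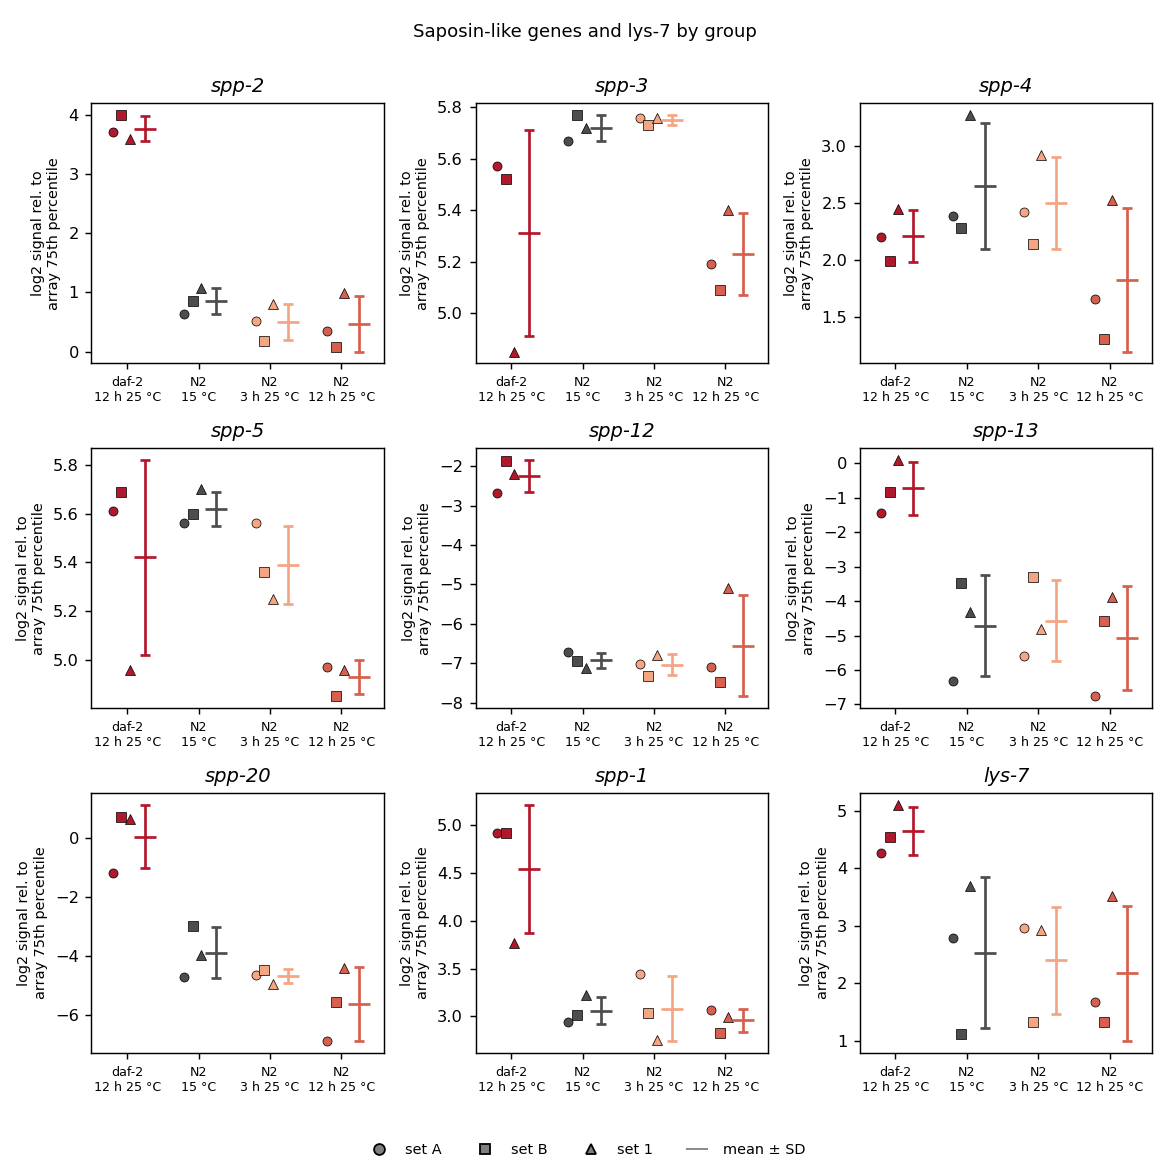
Log2 signal relative to the array's 75th percentile (vertical axes, a separate scale in each panel) of spp-2, spp-3, spp-4, spp-5, spp-12, spp-13, spp-20, spp-1 and lys-7 in the 4 groups, with 1 point per array (circle set A, square set B, triangle set 1) and a bar for the mean ± SD of 3 arrays. In spp-2 the daf-2 arrays lie between 3.6 and 4.0 and the highest N2 array is at 1.08, while in spp-3 and spp-4 the daf-2 arrays overlap those of N2.

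Smaller differences passed in 3 more saposin-like genes. The signal of spp-8 was 1.95, 2.33 and 1.90 in daf-2, against 0.92, 1.19 and 1.28 in N2 after 12 h, with no overlap and a difference of 0.93 ± 0.18 (adjusted p = 0.00502). The neighbouring gene spp-10 differed by 0.18 ± 0.20 (adjusted p = 0.516). The signal of spp-31 was −2.02, −1.82 and −2.28 in daf-2, against −3.40, −2.89 and −3.20 in N2 after 12 h, −3.47, −2.82 and −3.69 after 3 h, and −3.48, −2.73 and −3.73 at 15 °C. Every daf-2 array of spp-31 was above every N2 array, and it differed from N2 after 12 h by 1.12 ± 0.30 (adjusted p = 0.0242). The signal of spp-18 was 2.67, 2.18 and 2.04 in daf-2, against 1.65, 1.69 and 1.67 in N2 after 12 h. It differed by 0.63 ± 0.18 (adjusted p = 0.0317), but N2 at 15 °C (2.09, 2.29 and 2.48) and after 3 h (2.19, 2.01 and 2.11) overlapped daf-2. The calls of spp-1 and spp-8 were lost under median centring and without set A or set B, and those of spp-31 and spp-18 under 10 and 13 of 20 alternatives, among them most fits without 1 array (highest adjusted p 0.124, 0.122, 0.268 and 0.372 for spp-1, spp-8, spp-31 and spp-18).

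The 4 members with the highest ratios were at or near background in N2, so their ratios depend on the dim arrays. Because the filter let spp-7, spp-12 and spp-13 in through the group where they are high, their tests below come from the fit without it. The gene spp-12, whose product kills bacteria and is known from pharyngeal neurons, read −2.68, −1.86 and −2.21 in daf-2, against −7.10, −7.47 and −5.08 in N2 after 12 h, −7.01, −7.31 and −6.78 after 3 h, and −6.72, −6.94 and −7.11 at 15 °C. Of the 3 arrays of each group, 3 were above background in daf-2 and 1 in each N2 group. The difference between daf-2 and N2 after 12 h was 4.30 ± 0.53 (adjusted p = 0.00104), and over the alternatives it lay between 1.92 and 5.04, lowest with normexp background correction.

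The gene spp-20 on chromosome V read −1.19, 0.69 and 0.62 in daf-2, against −6.88, −5.56 and −4.39 in N2 after 12 h, −4.63, −4.47 and −4.93 after 3 h, and −4.69, −2.99 and −3.95 at 15 °C. Each daf-2 array was above every N2 array, and N2 after 12 h was above background on 1 of 3 arrays. The difference of 5.65 ± 0.68 (adjusted p = 0.000409) passed under all 18 alternatives that tested it and lay between 3.89 and 6.27 in them. For spp-13 the signal was −1.43, −0.84 and 0.10 in daf-2, against −6.77, −4.57 and −3.87 in N2 after 12 h, −5.60, −3.29 and −4.82 after 3 h, and −6.33, −3.47 and −4.33 at 15 °C. The groups did not overlap, and the difference from N2 after 12 h was 4.35 ± 0.94 (adjusted p = 0.0161). For spp-7 the signal was −3.97, −2.46 and −0.80 in daf-2, against −6.76, −5.90 and −5.31 in N2 after 12 h, −6.63, −4.87 and −5.94 after 3 h, and −6.81, −4.18 and −5.17 at 15 °C. The difference was 3.58 ± 0.88 (adjusted p = 0.0283), and by set it was 2.79, 3.44 and 4.52. The daf-2 signals of spp-7 and spp-13 varied more between arrays than those of spp-2, and with the filter their calls were lost without set 1 or without set B (adjusted p up to 0.107 and 0.0588), for spp-7 also without the N2 array of set A or the daf-2 array of set 1. With normexp background correction their differences were 1.76 for spp-7 and 2.56 for spp-13.

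With the block spp-15 (0.80 ± 0.21, adjusted p = 0.0221) and spp-24 (0.87 ± 0.26, adjusted p = 0.0325) were higher in daf-2 as well. In spp-24 every daf-2 array (1.43, 1.5 and 0.58) lay above every N2 array after 12 h (−0.09, 0.56 and 0.42). Differences of spp-14 (0.27 ± 0.20), spp-16 (0.09 ± 0.19), spp-17 (0.03 ± 0.19), spp-22 (−0.11 ± 0.44), spp-23 (−0.07 ± 0.20) and spp-25 (−0.29 ± 0.25) did not pass.

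Of the invertebrate-type lysozymes the test called 0 of 5 in either direction in daf-2, with 2 lower at an unadjusted p under 0.05. Of all genes 14.5% were higher and 7.42% lower, so with 5 genes a count of 0 does not set this family apart. In ilys-2 the signal was 3.10, 2.90 and 1.98 in daf-2, against 3.54, 3.17 and 3.59 in N2 after 12 h. The daf-2 arrays were all lower, by −0.77 ± 0.30 (adjusted p = 0.09). In ilys-5 the signal was 5.95, 6.05 and 4.76 in daf-2, against 6.49, 6.34 and 6.31 in N2 after 12 h. Again the groups did not overlap, and the difference of −0.79 ± 0.31 had adjusted p = 0.0926 without the block and 0.0435 with it. A second probe of ilys-5, for another transcript, was above background on 7 of 12 arrays and is not compared. In ilys-3 the signal was −0.71, −0.74 and −0.65 in daf-2, against −3.05, −1.46 and 0.89 in N2 after 12 h. The daf-2 arrays lay inside the wide N2 range, with a difference of 0.51 ± 0.93. For ilys-4 and ilys-6 the differences were 0.16 ± 0.30 and −0.26 ± 1.28. Over all 33 tested members the groups did not overlap downward in 2 of 33 members, against 21.3% of all genes, and upward in 15 of 33, against 21.8% of all genes. The 15 include spp-7, spp-12 and spp-13, which the filter let through by the daf-2 arrays alone, so their place in this count is no independent result.

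The 9 members that did not pass the filter were ilys-1, lys-3, lys-9, lys-10, spp-6, spp-9, spp-11, spp-19 and spp-21. Each was above background on at most 6 of 12 arrays, and spp-19 on 0. When fitted without the filter, lys-3, the neighbour of lys-1 and lys-2, differed between daf-2 and N2 by 2.71 ± 1.00 (adjusted p = 0.122) and spp-21 by 1.69 ± 0.68 (adjusted p = 0.152). In lys-3 the signal was −4.58, −2.99 and −1.53 in daf-2, against −6.69, −6.79 and −3.74 in N2 after 12 h, and the daf-2 array was the higher one in every set.

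Genes of an immune signalling list were read beside these effectors, and 32 of the 34 listed were tested. Whether they act on these members was not tested. In the 3 N2 comparisons 0 of 32 were called. Of all genes, 1.02% were called for 3 h against 15 °C. For 12 h against 15 °C 0.764% fell and 1.88% rose, and for 12 h against 3 h 0.564% fell and 1.55% rose. At an unadjusted p under 0.05 the list had 4, 6 and 1 genes in these comparisons, and no share over all genes is given for that threshold. With the block, the zinc-finger factor gene pqm-1 was higher after 3 h (1 of 32, against 1.65% of all genes), and pqm-1 and sma-4, the co-Smad gene, were higher after 12 h (2 of 32, against 5.1%), both relative to 15 °C. In daf-2, 8 of 32 were higher and 0 were lower, against the same 14.5% and 7.42% of all genes, and 3 were lower at an unadjusted p under 0.05. With the block 13 were higher and 1 was lower, against 20% and 17.3% of all genes. Those called without it included tir-1, the adaptor at the head of the PMK-1 mitogen-activated protein kinase cascade (log2 1.47 ± 0.28, adjusted p = 0.00463), and nsy-1, the kinase below it (0.50 ± 0.14, adjusted p = 0.0287). The phosphatase gene vhp-1, which restrains such cascades, was higher by 0.85 ± 0.14 (adjusted p = 0.0018), and the receptor gene fshr-1 by 0.97 ± 0.20 (adjusted p = 0.00645). The intestinal GATA factor genes elt-2 (0.62 ± 0.20) and elt-7 (0.74 ± 0.18), the autophagy and immune regulator hlh-30 (0.60 ± 0.18) and the homeobox gene egl-5 (1.12 ± 0.29) were the others. The transcripts of pmk-1 (0.12 ± 0.13, adjusted p = 0.494) and daf-16 (−0.05 ± 0.13, adjusted p = 0.773) did not pass.

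Markers of the tissues in the whole worm moved in several directions beside these results. In the daf-2 comparison 5 of 16 intestine markers were higher (elt-2, cpr-1, ftn-1, asp-3 and ges-1) and 6 were lower (ifb-2, pept-1, vit-1, ifc-2, act-5 and vha-6). For these and the other daf-2 marker counts below, the shares over all genes were 14.5% higher and 7.42% lower. The summed intestine level on the log2 scale was 9.27 to 9.37 in daf-2, against 9.29 to 9.58 in N2 after 12 h, 9.53 to 10.01 after 3 h and 9.14 to 9.95 at 15 °C, and 15 of the 16 were above background on every array. The median of the 16 was 2.99, 2.59 and 3.02 in daf-2 and 3.13, 3.21 and 3.49 in N2 after 12 h (sets A, B and 1). It was 3.53, 3.96 and 3.95 after 3 h and 3.56, 3.88 and 4.07 at 15 °C. In each set this median was lower after 12 h than at 15 °C, and lower again in daf-2. After 12 h in N2, 2 of the 16 intestine markers fell against 15 °C, against 0.764% of all genes, and the other 14 were not called. Those that fell were cpr-1 and asp-3, genes of intestinal proteases (−2.29 ± 0.39 and −0.79 ± 0.15). Of 8 germ line and oocyte markers 5 were lower in daf-2, with summed levels of 7.54 to 7.84, against 8.15 to 8.53 in N2 after 12 h. Of 9 pharynx markers, ceh-22 and pha-4 were higher in daf-2, with summed levels of 3.84 to 4.13, against 3.55 to 3.99 in N2 after 12 h. For hypodermis, dpy-7 (1 of 5) was higher, with summed levels of 5.62 to 6.29 in daf-2, against 6.51 to 6.52 in N2 after 12 h, and 0 of 5 body wall muscle markers were called, with 0 at an unadjusted p under 0.05. With the block, pha-4 was higher after 12 h than at 15 °C in N2 (1 of 9 pharynx markers, against 5.1% of all genes). In daf-2 the block added phat-5 as higher and col-19 and oma-1 as lower, where 20% of all genes were higher and 17.3% lower. The 21 sperm markers had 0 calls and 0 at an unadjusted p under 0.05, and their summed level varied widely, from 4.78 to 7.28 in daf-2 and from 6.89 to 9.86 in N2 after 12 h. In RNA from whole worms, fewer cells of a type and less RNA per cell cannot be told apart, and the part of these markers in the results on lysozymes and saposin-like genes was not tested.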

How the data were processed

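Total RNA of whole worms was labelled with Cy3 and hybridised to 12 Agilent single-colour arrays, per the labels. Per the file headers, spots were read with Agilent Feature Extraction 10.10.1.1. The deposited processed signal is an intensity on a linear scale, background-subtracted and not scaled between arrays, and the deposited median spot and local background values are also intensity. The deposited flags (0 or 1) mark saturated, uneven and well-detected spots. The authors' series table holds intensity values for 24939 probes in sets A and B and 35344 in set 1. Each column is the processed signal multiplied by a single constant (largest log2 deviation 0.0373). How probes and constants were chosen is not stated in the labels or files.

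Of 45220 spots, 1417 controls were left out, 31 to 157 uneven spots per array were set to missing and 0 were saturated. Probes were named through a gene table of assembly WBcel235, used for names and gene order only because the design cites ce4. Of 43603 probes, 34320 matched 1 gene (30978 by sequence name, 3342 by accession) and 9283 did not match. Members had 0 missing values. From the intensity, log2 values minus the array's 75th percentile were computed, repeated spots were averaged and the brightest probe that passed the filter stood for its gene. Groups were compared with limma 3.58.1 (lmFit and eBayes, R 4.3.3) on all 12 arrays with 1 mean per group, checked on simulated data. Plots used Python 3.11.15 and matplotlib 3.10.9. The number of arrays limits the precision.

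Members, gene lists and tests were chosen with earlier results of these data known. The text gives array values for each member called without the block and for lys-1, lys-7, lys-8, spp-1, spp-5 and ilys-3, and names all other members once or more. Array values of lys-6, ilys-5, ilys-6, spp-24 and lys-3 were added after their values were seen.

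Replicate letters pair arrays through the shared slide, per the file headers. Deviations from group means over 13225 genes correlated within sets A, B and 1 at 0.777, 0.894 and 0.703 (3 h against 15 °C), 0.513, 0.775 and 0.803 (12 h against 15 °C), 0.449, 0.747 and 0.591 (12 h against 3 h), and 0.389, −0.399 and 0.129 (daf-2 against N2). Alternatives changed normalization, centring, source, filter, probe choice, block, and the arrays in the fit. The fit of sets A and B with the block was chosen after seeing the data.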

Additional observations from a re-analysis of the deposited data

Results flagged for a closer look

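The shift of lys-4 and of lys-5 in N2 differed between the 2 times at 25 °C. The change after 12 h minus the change after 3 h was −1.77 for lys-4 (adjusted p = 0.0134) and −1.81 for lys-5 (adjusted p = 0.00671) by limma, with the 12 h array lower than the 3 h array in 3 of 3 sets for each. The test is the same contrast as the comparison of 12 h with 3 h, since both changes are taken against the same arrays at 15 °C.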

How the results depend on the processing

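Counts of members called depended on the arrays and the centring. Numbers in brackets are the genes called in either direction among all genes tested in the same fit. For 3 h against 15 °C the count was 0 in all alternatives except the replicate block, which gave 1. For 12 h against 15 °C, where 4 were called, it was 9 with the replicate block, 3 with the block in sets A and B, 2 with median centring, 2 with no filter on dim probes, 2 with sets A and B alone, and 0 to 2 when 1 array or 1 set was left out. For 12 h against 3 h, where 2 were called, it was 3 with the replicate block, 0 with median centring, 1 with only these groups in the fit, and 0 to 2 when 1 array or 1 set was left out. For daf-2 against N2, where 13 were called, it was 18 with the replicate block, 5 with median centring (spp-2, spp-7, spp-12, spp-13 and spp-20), and 4 to 13 when arrays were left out, with 4 without set B, 5 without set A, 7 without the N2 array of set A, and 8 without the daf-2 array of set A or of set B. Median centring moved the median difference of all genes by −0.24 in that comparison, to −0.38, with the members at 0.31, and dropping the filter moved it by 0.11. The authors' table lists the probes of spp-7, spp-12, spp-13 and spp-20 on the 4 arrays of set 1 alone, 1 per group, so they had no test there and 29 members were tested, of which 12 were called in daf-2. With the mean of a gene's probes ilys-5 was also lower in daf-2. Over 76 single-gene changes and 1488 alternative values, 0 turned their direction where called, 114 lost and 21 gained a call, and 2 uncalled values moved by more than the spread between replicates. Most of the 76 were not called and only a called change can lose a call, so 114 is not a share of the 1488. Per called change, losses ranged from 0 of 20 alternatives for spp-2 in daf-2 to 16 of 20 for spp-25 after 12 h against 15 °C. The causes were not tested. Fits that leave 1 set out have 2 arrays per group, and without set 1 the daf-2 count was 13. Without set A or set B, 0 of all genes tested passed for 12 h against 15 °C and for 12 h against 3 h. The motif search in promoters was not run, since no promoter sequences were used here. Dim signal limits spp-7, spp-12, spp-13, spp-20 and the 9 untested members.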
